A study of Rattus norvegicus with 8 samples.

Results

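The transcripts described here are those of 48 listed genes of the cell division cycle and DNA replication, measured in neuronal cultures from the hippocampus of wild-type SD rats at 18 days in vitro. They were chosen by gene symbol, with earlier results of these data known. The symbols were looked up in the authors' deposited comparison table and joined by Ensembl identifier to the count tables. Of the 48, 46 were paired with an identifier, out of 32623 annotated genes in all, and Hells and Ccnb2 are not analysed here. A positive allosteric modulator (PAM) of the NMDA receptor had been applied to the cultures behind 4 of the libraries. Such a compound makes this glutamate-gated ion channel respond more strongly to its agonists. The other 4 libraries came from vehicle-treated cultures. Strain, genotype, tissue and age were the same in both groups, and the sources used here name neither the compound nor its dose or duration. Nothing in the labels says whether replicates were separate cultures, so the p-values measure the spread between these libraries, which may be technical.

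A cell that divides first copies its DNA and then separates the copies. In G1 phase, D-type cyclins and then cyclin E with CDK2 release E2F transcription factors from the retinoblastoma family, and E2F drives genes for the MCM helicase, the sliding clamp and nucleotide synthesis. Later, in G2 and M phase, genes for cyclin B, CDK1, the Aurora and Polo kinases, the spindle and the kinetochore are switched on through promoter elements called CHR, bound by the MuvB complex together with B-MYB and FOXM1, and CCAAT boxes, bound by NF-Y. Mature neurons have left the cycle, so in cultures of brain tissue these transcripts are usually attributed to glia, their precursors and other cells that still divide.

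Both arms of transcription can be looked for in the DNA upstream of the genes compared below. The 150 bases before the annotated start of 3 mitosis genes and 3 replication genes are printed from RefSeq (build GRCr8), read along the coding strand from 5′ to 3′ and ending at the base before the start. They are shown as examples of the letters found in each class, and the values of their genes are given further on. Capitals mark every match, on either strand, to the CHR letters TTTGAA, the NF-Y letters CCAAT or 1 of 4 E2F spellings, TTTCCCGC, TTTGGCGC, TTTGCCGC and TTTCGCGC.

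Cdk1, the mitotic kinase, chr20:19265143-19265292, plus strand: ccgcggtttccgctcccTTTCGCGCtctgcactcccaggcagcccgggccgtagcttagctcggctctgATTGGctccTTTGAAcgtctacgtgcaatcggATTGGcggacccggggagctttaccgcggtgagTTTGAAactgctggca
Cdc20, activator of the anaphase-promoting complex, chr5:137255800-137255949, minus strand: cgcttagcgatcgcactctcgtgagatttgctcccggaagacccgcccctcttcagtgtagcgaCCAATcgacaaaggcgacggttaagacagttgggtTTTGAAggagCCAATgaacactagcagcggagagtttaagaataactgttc
Prc1, the central spindle protein, chr1:143659331-143659480, plus strand: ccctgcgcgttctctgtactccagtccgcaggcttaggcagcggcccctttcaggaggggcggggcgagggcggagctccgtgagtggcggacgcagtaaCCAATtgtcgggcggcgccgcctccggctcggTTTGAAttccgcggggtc
Mcm7, a subunit of the MCM helicase, chr12:22163179-22163328, minus strand: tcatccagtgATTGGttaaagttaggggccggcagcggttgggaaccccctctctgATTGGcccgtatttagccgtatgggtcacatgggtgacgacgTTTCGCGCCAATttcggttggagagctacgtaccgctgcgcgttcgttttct
Mcm5, a subunit of the same helicase, chr19:13488663-13488812, plus strand: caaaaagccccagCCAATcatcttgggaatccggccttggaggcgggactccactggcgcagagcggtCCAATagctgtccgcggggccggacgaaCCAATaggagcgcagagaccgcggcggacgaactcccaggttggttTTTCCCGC
Mcm6, another subunit of that helicase, chr13:42404353-42404502, minus strand: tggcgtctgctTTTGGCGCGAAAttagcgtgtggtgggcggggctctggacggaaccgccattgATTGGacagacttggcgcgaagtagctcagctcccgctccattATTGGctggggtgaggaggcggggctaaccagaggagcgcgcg

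The 3 mitosis promoters each hold a CHR match beside an NF-Y match, and the 3 helicase promoters hold NF-Y matches with E2F matches and no CHR match. In Mcm7 an E2F match and an NF-Y match share letters, and in Mcm6 the 2 E2F matches overlap on opposite strands. Cdk1 is the single mitosis gene whose promoter also matched an E2F spelling. A promoter of 300 bases (250 before to 50 after the start) was found for 34 of the 46 genes. CHR letters occurred in 16 of 20 mitosis promoters (80%) and in 1 of 12 replication promoters (8.33%, Mcm2), against 18.1% of the 27457 promoters of the table. NF-Y letters occurred in 16 of 20 mitosis promoters (80%) and in 9 of 12 replication promoters (75%), against 37.7% of all. E2F letters occurred in 1 of 20 mitosis promoters (5%) and in 8 of 12 replication promoters (66.7%), against 2.25% of all. The median GC content was 59.3% in the mitosis promoters, 59.2% in the replication promoters and 52.3% in all promoters, and the letters of the motifs differ in GC content. In the mitosis promoters with a CHR match, the nearest match lay a median of 20 bases from the start. Among the mitosis genes tested for a difference with PAM, 9 of 14 with a CHR match and 3 of 4 without one rose. Those 3 were Ccnb1, with NF-Y matches, and Aurka and Bub1, with no match of any kind. Among the replication genes tested, 1 of 8 with an E2F match (Mcm7) and 2 of 4 without one (Pcna and Rrm1) rose. A match is a description of the letters and not a measured binding site.

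**Figure D1:**
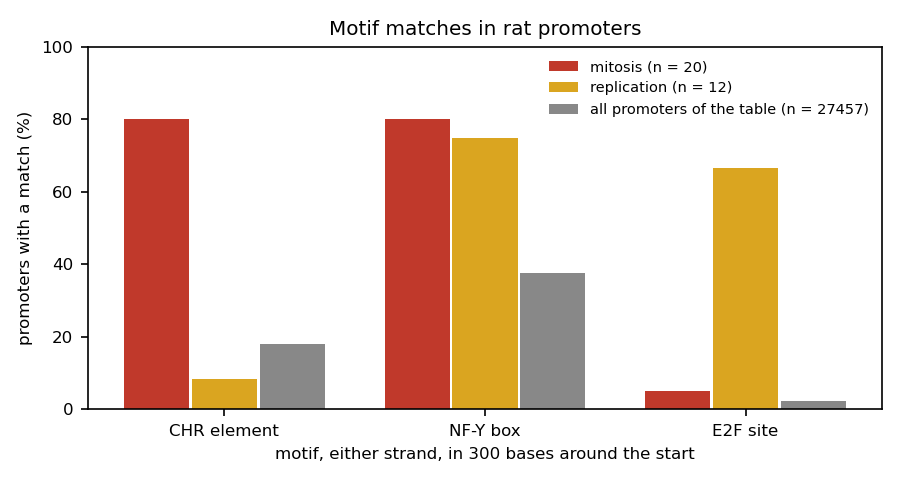
Share of promoters (%, vertical axis) that hold at least 1 match to the CHR, NF-Y or E2F letters on either strand within 300 bases around the annotated start, for 20 mitosis genes, 12 replication genes and all 27457 promoters. CHR letters are found in 80% of mitosis promoters and 8.33% of replication promoters, and E2F letters in 5% and 66.7%.

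Library totals ran from 2960406 to 4389430 counts. The floor set by 3 counts was 0.640 to 1.08 CPM, where CPM is counts scaled to a common library size by the TMM method, and it covers counting error only. A gene was said to rise or fall where edgeR's quasi-likelihood test gave a Benjamini-Hochberg adjusted p under 0.05 over the 11740 genes tested, and every log2 fold change is PAM over vehicle. The median log2 fold change of all tested genes was 0.02. Of the 46 genes, 43 were tested, and Cdc6, Anln and Ncapg, with 56, 43 and 63 counts over all libraries, lay below the filter on low counts.

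Cell cycle transcripts were higher in PAM than in vehicle libraries, and most of all those of mitosis. Of the 43 genes tested, 22 rose and 0 fell, which is 51.2%, where 9.00% of all tested genes rose and 9.89% fell. The log2 fold change was positive for 41 of the 43, against 51.9% of all tested genes. The median log2 fold change was 0.81. In the authors' deposited table the same 22 genes had a positive log2 fold change with an adjusted p under 0.05, from the same libraries, and 0 had a negative one. At an unadjusted p under 0.05 in edgeR, 31 of the 43 were higher and 1, Ccne1, was lower, and 0 fell in DESeq2 or limma-voom, in which 21 and 22 rose. All 4 PAM libraries lay above all 4 vehicle libraries for 22 of the 43 genes (10.3% of all tested genes) and below them for 1, Ccne1 (12% of all). The 22 genes that rose and the 22 whose libraries did not overlap are not the same set: Cdk2, Mcm2, Mcm5, Cdt1 and Tyms did not overlap and did not pass the test. In bulk RNA a larger share of cells that hold these transcripts and more transcript per such cell cannot be told apart. Whether those cells were dividing was not measured.

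Mitosis genes rose in 17 of 24 tested (70.8%), replication genes in 4 of 14 (28.6%) and G1 regulators in 1 of 5 (20%). The median log2 fold change was 1.03 for mitosis genes, 0.55 for replication genes and 0.42 for G1 regulators. Every mitosis gene tested had a positive log2 fold change, from 0.32 for Smc2 to 1.93 for Aurkb. Replication genes ran from −0.14 for Gins2 to 1.20 for Rrm2. The difference between the mitosis and replication medians was 0.48. It ran from 0.34 without vehicle 2 to 0.56 without PAM 2 when 1 library was left out, and its spread between replicates was 0.13. With PAM 3 and PAM 4 both left out, 8 replication genes rose in place of 4, and 20 mitosis genes rose.

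Summed over its 26 genes, the mitosis class stood at 872, 769, 626 and 656 CPM in PAM 1 to 4, against 297, 321, 370 and 327 CPM in vehicle 1 to 4. The PAM libraries averaged 731 ± 112 CPM and the vehicle libraries 329 ± 30.5 CPM (SD, n = 4 each), a ratio of 2.22. The lowest PAM library held more mitotic transcript than the highest vehicle library. The 15 replication genes summed to 447, 425, 384 and 403 CPM in PAM 1 to 4, against 285, 293, 294 and 288 CPM in vehicle 1 to 4, a ratio of 1.43 between means of 415 ± 27.2 CPM in PAM and 290 ± 4.17 CPM in vehicle libraries. The vehicle libraries were close to each other in this sum, and again the groups did not overlap. The 5 G1 regulators averaged 172 ± 15.2 CPM in PAM and 146 ± 14.1 CPM in vehicle libraries, a ratio of 1.18, with groups that overlapped.

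Within a library the balance of the classes can be read without the library size. The log2 ratio of summed mitosis to summed replication level, both in CPM per kilobase of exon, was 0.41, 0.30, 0.23 and 0.30 in PAM 1 to 4, against −0.30, −0.35, −0.08 and −0.33 in vehicle 1 to 4. Every PAM library lay above every vehicle library in this ratio, whose sign also depends on how many genes each class holds. The means were 0.31 ± 0.07 in PAM and −0.27 ± 0.12 in vehicle libraries (SD, n = 4 each). Aurkb holds a large part of the mitosis sum. Without it the mitosis sum averaged 555 ± 54.7 CPM in PAM and 283 ± 40.0 CPM in vehicle libraries, a ratio of 1.96, and the log2 ratio of the classes averaged 0.04 ± 0.05 in PAM and −0.42 ± 0.16 in vehicle libraries. That sum without Aurkb was computed after its values were seen. In the replication sum, Pcna alone averaged 77.5 CPM per kilobase in PAM and 49.9 in vehicle libraries. The whole replication sum was 176 to 203 CPM per kilobase in PAM and 114 to 133 in vehicle libraries. The ratio without Pcna was not computed.

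**Figure D2:**
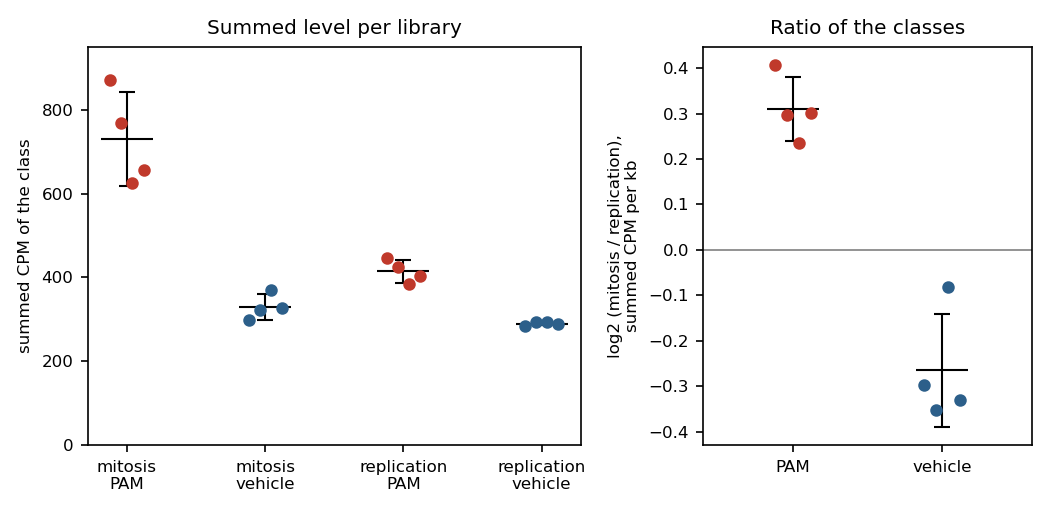
Left, summed CPM of the mitosis and replication genes in each library (points), with mean and SD (bars, n = 4 each), PAM left of vehicle. Right, log2 ratio of the summed mitosis to the summed replication level per kilobase, which lies between 0.23 and 0.41 in PAM libraries and between −0.35 and −0.08 in vehicle libraries.

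Among the G1 regulators, Ccnd1 encodes cyclin D1, which with CDK4 and CDK6 starts the phosphorylation of the retinoblastoma protein. Ccnd1 (ENSRNOG00000020918; Rnor_6.0 chromosome 1, 218090750 to 218100325, minus strand) stood at 109.7, 102, 79.7 and 84.4 CPM in PAM 1 to 4, against 77.7, 64.1, 76.4 and 64.4 CPM in vehicle 1 to 4. The 4 PAM libraries all lay above the vehicle libraries, PAM 3 by a small margin. Ccnd1 rose by 0.42 ± 0.13 (SE) on the log2 scale (edgeR, Benjamini-Hochberg adjusted p = 0.0353). Its call was lost without PAM 1, PAM 2, vehicle 2, vehicle 3 or vehicle 4, with adjusted p from 0.0157 to 0.126 over the 8 edgeR fits that leave out 1 library. Ccnd2, the cyclin D2 gene, was at 34.2 ± 6.70 CPM in PAM and 31.6 ± 3.25 CPM in vehicle libraries, a log2 fold change of 0.12 with a 95% interval of −0.25 to 0.49.

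The E-type cyclins, which bind CDK2 to start S phase, did not pass. Ccne1 was at 25.4, 23.0, 23.0 and 26.0 CPM in PAM 1 to 4, against 33.8, 27.5, 38.2 and 27.5 CPM in vehicle 1 to 4. Each PAM library was below each vehicle library. The log2 fold change of −0.39 ± 0.18 missed the threshold (edgeR, Benjamini-Hochberg adjusted p = 0.144), with a 95% interval of −0.76 to −0.01 before adjustment, and adjusted p ran from 0.111 to 0.358 over the 17 alternatives. Cdk2 itself was at 8.53, 14.1, 13.1 and 11.2 CPM in PAM 1 to 4, against 6.71, 6.33, 8.14 and 5.50 CPM in vehicle 1 to 4. Its libraries did not overlap, and its log2 fold change of 0.81 ± 0.30 missed the threshold (edgeR, Benjamini-Hochberg adjusted p = 0.0633). Ccne2 was at 7.95 ± 2.16 CPM in PAM and 5.74 ± 1.28 CPM in vehicle libraries without passing, and it shares exon bases with another gene that holds 537 counts, so its value is uncertain.

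The MCM genes encode the subunits of the ring-shaped helicase that opens DNA at replication origins. Of the 6, 1 passed the test. Mcm7 (ENSRNOG00000001349; Rnor_6.0 chromosome 12, 19306607 to 19314016, minus strand) stood at 37.3, 27.9, 36.7 and 55.2 CPM in PAM 1 to 4, against 22.0, 22.3, 15.3 and 24.6 CPM in vehicle 1 to 4. The groups did not overlap and Mcm7 rose by 0.89 ± 0.22 (edgeR, Benjamini-Hochberg adjusted p = 0.00691), in all 17 alternatives too. Mcm6 was at 32.7, 37.1, 25.2 and 25.6 CPM in PAM 1 to 4, against 25.9, 30.8, 29.1 and 28.5 CPM in vehicle 1 to 4. The PAM libraries lay on both sides of the vehicle libraries, and the log2 fold change was 0.09 with a 95% interval of −0.29 to 0.46. The interval of Mcm7, 0.43 to 1.34, overlaps that of Mcm6 at its edge, and the difference between the 2 genes was not tested.

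Between these lay the other 4 MCM genes, none of which passed. Mcm5 was at 24.4, 23.9, 20.0 and 20.2 CPM in PAM 1 to 4, against 13.1, 15.4, 18.8 and 12.6 CPM in vehicle 1 to 4. Mcm2 was at 33.0, 29.0, 32.3 and 29.9 CPM in PAM 1 to 4, against 18.9, 25.9, 27.6 and 18.8 CPM in vehicle 1 to 4. In both genes the PAM libraries were the 4 highest, and their log2 fold changes were 0.57 ± 0.21 and 0.45 ± 0.19 (edgeR, Benjamini-Hochberg adjusted p = 0.0729 and 0.106). Mcm3 was at 13.6, 17.1, 12.3 and 10.8 CPM in PAM 1 to 4, against 4.88, 5.51, 13.1 and 6.15 CPM in vehicle 1 to 4. Vehicle 3 alone reached the PAM range. Mcm3 passed in 4 of 17 alternatives, limma-voom (adjusted p = 0.0402) and the fit without PAM 4 (0.0392) among them, and without vehicle 3 it passed at a log2 fold change of 1.29 (Benjamini-Hochberg adjusted p = 0.0130 in edgeR, and from 0.0130 to 0.193 in the 17 alternatives), against 0.87 ± 0.33 (adjusted p = 0.0718) with all libraries. Mcm4 was at 35.9 ± 9.33 CPM in PAM and 29.0 ± 1.63 CPM in vehicle libraries, with groups that overlapped. Without both PAM 3 and PAM 4, Mcm3, Mcm4 and Mcm5 passed (edgeR, Benjamini-Hochberg adjusted p = 0.0188, 0.0343 and 0.0287). With all 8 libraries and the trend over gene length removed, none of the 3 did (0.0561, 0.181 and 0.0526).

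Of the other origin factors on the list, Cdt1 and Gins2 did not pass the test. Cdt1, which loads the MCM ring onto origins, was at 12.4 ± 1.44 CPM in PAM and 9.37 ± 1.32 CPM in vehicle libraries, with groups that did not overlap. Gins2, a subunit of the GINS complex that completes the active helicase, had the lowest log2 fold change among replication genes, −0.14 with a 95% interval of −0.61 to 0.34. Cdc6, which works with Cdt1, was too rare to test, at 2.38 ± 0.561 CPM in PAM and 1.47 ± 1.08 CPM in vehicle libraries.

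The sliding clamp and the nucleotide-supply enzymes account for 3 of the 4 replication genes that rose. Pcna, the clamp that holds DNA polymerase on its template, stood at 87.8, 92.3, 90.4 and 89.1 CPM in PAM 1 to 4, against 41.8, 61.1, 57.0 and 71.5 CPM in vehicle 1 to 4. The PAM libraries were within a few CPM of each other, whereas the vehicle libraries spread widely, and the groups did not overlap. Pcna (ENSRNOG00000021264; Rnor_6.0 chromosome 3, 124880698 to 124884570, minus strand) rose by 0.64 ± 0.14 (edgeR, Benjamini-Hochberg adjusted p = 0.00414). Rrm1, the large subunit of ribonucleotide reductase, which makes deoxynucleotides, was at 83.0, 61.8, 62.2 and 68.1 CPM in PAM 1 to 4, against 55.8, 39.6, 41.0 and 29.1 CPM in vehicle 1 to 4. Every PAM library was above every vehicle library, and Rrm1 rose by 0.73 ± 0.17 (edgeR, Benjamini-Hochberg adjusted p = 0.00607).

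Rrm2, the small subunit whose level limits the same enzyme in S phase, was at 21.7, 16.6, 7.67 and 4.69 CPM in PAM 1 to 4, against 5.79, 5.23, 7.51 and 3.88 CPM in vehicle 1 to 4. PAM 1 and PAM 2 stood clear of the vehicle libraries, PAM 3 lay just above vehicle 3, and PAM 4 lay within the vehicle range. Rrm2 rose by 1.20 ± 0.41 (edgeR, Benjamini-Hochberg adjusted p = 0.0462), and the call was lost without PAM 1, without PAM 2 or without any 1 of the 4 vehicle libraries, with log2 fold changes from 0.82 to 1.45 and adjusted p from 0.00358 to 0.217 over the 8 edgeR fits that leave out 1 library. With all 8 libraries it was also lost in limma-voom (adjusted p = 0.114) and with the trend over gene length removed (0.0604), and in 9 of 17 alternatives in all. Tyms, thymidylate synthase, was at 5.08 ± 0.915 CPM in PAM and 2.90 ± 0.854 CPM in vehicle libraries without overlap and without passing. The chromatin genes of the list overlapped between groups: Ezh2, the methyltransferase of the Polycomb complex, was at 24.0, 18.3, 10.4 and 8.29 CPM in PAM 1 to 4, against 11.3, 12.9, 7.20 and 11.0 CPM in vehicle 1 to 4. PAM 1 and PAM 2 were high here too, and PAM 3 and PAM 4 lay within the vehicle range. Its adjusted p was 0.258 in edgeR, and 0.00544 once PAM 3 and PAM 4 were both left out. Uhrf1, which couples DNA methylation to replication, was at 11.5 ± 1.99 CPM in PAM and 9.78 ± 0.834 CPM in vehicle libraries and did not pass.

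**Figure D3:**
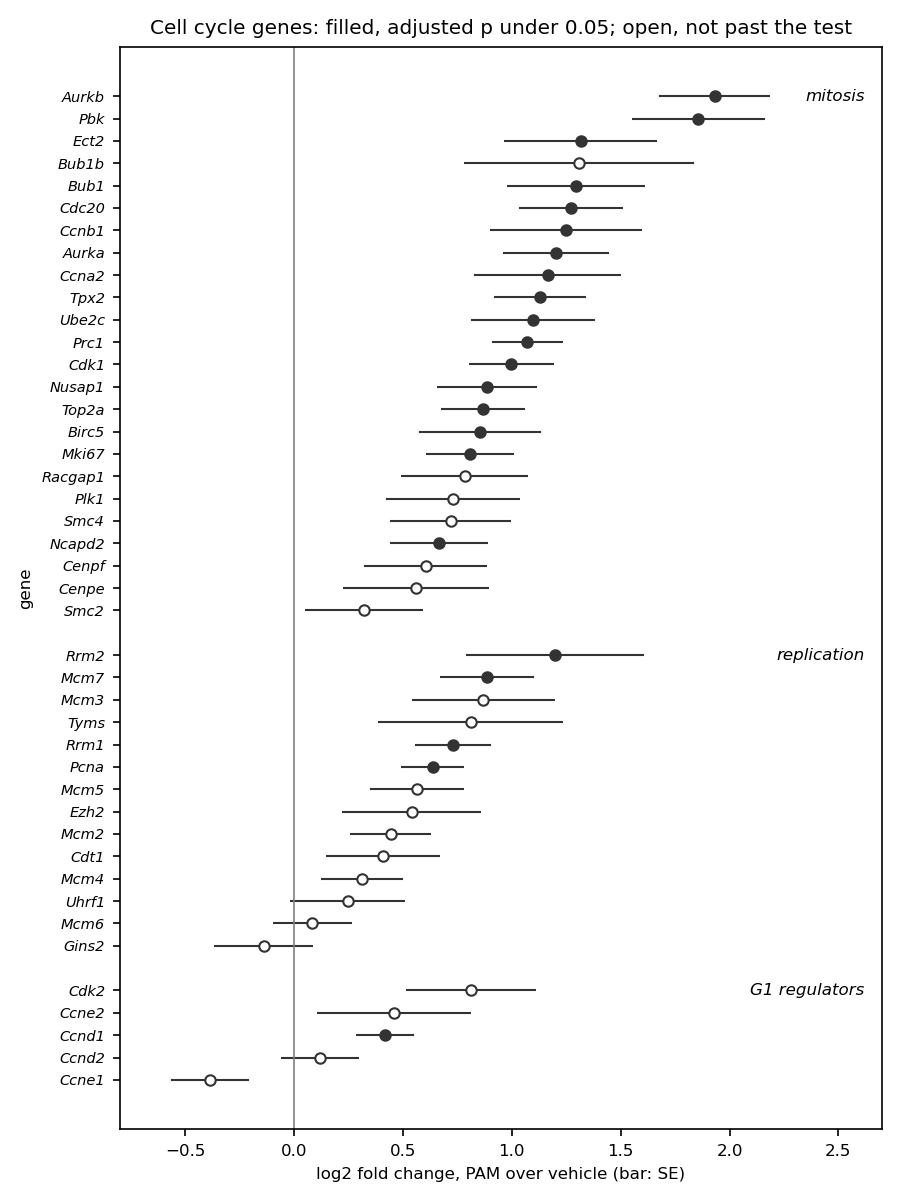
Log2 fold change of PAM over vehicle with its SE (bars) for the 43 genes tested, grouped into mitosis, replication and G1 regulators, filled where the edgeR adjusted p was under 0.05. The 24 mitosis genes lie between 0.32 and 1.93, and the 14 replication genes between −0.14 and 1.20.

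The master kinase of mitosis, CDK1, and its cyclins rose together. Cdk1 (ENSRNOG00000000632; Rnor_6.0 chromosome 20, 20576377 to 20591549, plus strand) stood at 39.0, 34.8, 39.7 and 47.6 CPM in PAM 1 to 4, against 16.2, 15.7, 24.7 and 23.9 CPM in vehicle 1 to 4. The groups were far apart relative to their spread, and Cdk1 rose by 1.00 ± 0.20 (edgeR, Benjamini-Hochberg adjusted p = 0.00136). Ccnb1, the cyclin B1 gene, was at 14.3, 13.9, 6.02 and 11.9 CPM in PAM 1 to 4, against 4.57, 4.95, 6.26 and 3.56 CPM in vehicle 1 to 4, so that PAM 3 lay just under vehicle 3. Ccna2, whose cyclin A2 acts in S phase and G2, was at 14.8, 14.3, 11.0 and 16.2 CPM in PAM 1 to 4, against 5.49, 4.68, 11.3 and 3.56 CPM in vehicle 1 to 4, and again vehicle 3 reached the lowest PAM library. They rose by 1.25 ± 0.35 and 1.17 ± 0.34 (edgeR, Benjamini-Hochberg adjusted p = 0.0165 and 0.0206). Without PAM 1 or vehicle 4 the Ccnb1 call was lost (adjusted p 0.00577 to 0.0610 over the 8 edgeR fits), and without vehicle 1, 2 or 4 that of Ccna2 (0.00387 to 0.0791).

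Aurkb, the Aurora B kinase of the chromosomal passenger complex, which corrects the attachment of chromosomes to the spindle, had the largest log2 fold change of the 43 genes. Aurkb (ENSRNOG00000005659; Rnor_6.0 chromosome 10, 55626741 to 55634991, plus strand) stood at 270.1, 175, 142 and 118 CPM in PAM 1 to 4, against 57.6, 59.2, 40.4 and 27.5 CPM in vehicle 1 to 4. The lowest PAM library was far above the highest vehicle library, with PAM 1 the highest. Aurkb rose by 1.93 ± 0.26 (edgeR, Benjamini-Hochberg adjusted p = 0.000113). With 3456 counts it held more than any other gene of the list. The annotated gene has 4404 exonic bases, and its last exon, at 55631642 to 55634991, takes 3350 of them, so most of the length counted for it is a single terminal exon. It shares no exon bases with another annotated gene. Counts are given per gene, so how many of them lie in that last exon cannot be read. Its passenger complex partner Birc5 (survivin) was at 12.9 ± 2.38 CPM in PAM and 7.06 ± 0.751 CPM in vehicle libraries and rose by 0.86 ± 0.28 (edgeR, Benjamini-Hochberg adjusted p = 0.0388). The Birc5 call was lost in 12 of 17 alternatives, with any 1 of PAM 2, PAM 3, PAM 4 or the 4 vehicle libraries left out among them (adjusted p 0.0474 to 0.0927 over the 8 edgeR fits).

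Aurka, the Aurora A kinase of the spindle poles, was at 23.0, 23.2, 26.6 and 32.1 CPM in PAM 1 to 4, against 9.76, 16.8, 10.3 and 8.09 CPM in vehicle 1 to 4. Tpx2, which activates Aurora A on microtubules, was at 46.6, 40.3, 31.8 and 26.7 CPM in PAM 1 to 4, against 18.9, 12.9, 15.7 and 19.4 CPM in vehicle 1 to 4. Neither gene overlapped between groups. They rose by 1.20 ± 0.24 and 1.13 ± 0.21 (edgeR, Benjamini-Hochberg adjusted p = 0.00187 and 0.000956). Plk1, the Polo-like kinase, was at 22.4, 11.1, 16.7 and 10.8 CPM in PAM 1 to 4, against 6.40, 7.43, 12.8 and 10.4 CPM in vehicle 1 to 4. Its PAM 1 library was high and PAM 2 and PAM 4 were below vehicle 3, and it missed the threshold (edgeR, Benjamini-Hochberg adjusted p = 0.108). Plk1 passed with PAM 4 left out (0.0454), and with PAM 3 and PAM 4 both left out (0.0434).

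Pbk, a mitotic protein kinase, had the second largest log2 fold change. Pbk (ENSRNOG00000015308; Rnor_6.0 chromosome 15, 42489377 to 42500395, plus strand) stood at 26.3, 29.0, 15.6 and 20.6 CPM in PAM 1 to 4, against 3.35, 5.51, 9.71 and 6.79 CPM in vehicle 1 to 4. All PAM libraries were above all vehicle libraries, and Pbk rose by 1.86 ± 0.31 (edgeR, Benjamini-Hochberg adjusted p = 0.000299). At 447 counts over all libraries it rests on fewer counts than Aurkb.

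The exit from mitosis is set by the anaphase-promoting complex, its activator Cdc20 and its ubiquitin-conjugating partner Ube2c. Cdc20 (ENSRNOG00000028415; Rnor_6.0 chromosome 5, 137260739 to 137265015, minus strand) stood at 33.4, 29.0, 39.2 and 43.3 CPM in PAM 1 to 4, against 7.62, 17.9, 17.8 and 16.2 CPM in vehicle 1 to 4. The groups did not overlap, vehicle 1 was the low library, and Cdc20 rose by 1.27 ± 0.24 (edgeR, Benjamini-Hochberg adjusted p = 0.000924). Ube2c was at 20.5, 17.5, 23.3 and 23.1 CPM in PAM 1 to 4, against 7.93, 5.23, 15.3 and 11.0 CPM in vehicle 1 to 4, and rose by 1.10 ± 0.28 (edgeR, Benjamini-Hochberg adjusted p = 0.0108). The spindle checkpoint gene Bub1 was at 13.8, 20.9, 11.8 and 13.0 CPM in PAM 1 to 4, against 4.27, 5.51, 9.39 and 5.18 CPM in vehicle 1 to 4. Its groups did not overlap, and it rose by 1.30 ± 0.32 (edgeR, Benjamini-Hochberg adjusted p = 0.00695). Bub1b, which encodes the checkpoint protein BubR1, had a like log2 fold change of 1.31 with a wide SE of 0.53 and missed the threshold, with an adjusted p of 0.0934 in edgeR. It passed in 4 of 17 alternatives, among them limma-voom (0.0455) and the fit without vehicle 3 (0.0478). Its vehicle libraries ran from 0.305 to 6.89 CPM, and the lowest of these is under the floor of 3 counts.

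Of the central spindle and cytokinesis genes, Prc1, Ect2 and Nusap1 rose. Prc1, which bundles the antiparallel microtubules between separating chromosomes, stood at 78.1, 67.2, 59.4 and 53.4 CPM in PAM 1 to 4, against 32.3, 28.4, 36.6 and 25.9 CPM in vehicle 1 to 4. Prc1 (ENSRNOG00000013057; Rnor_6.0 chromosome 1, 142087208 to 142108746, plus strand) rose by 1.07 ± 0.16 (edgeR, Benjamini-Hochberg adjusted p = 0.000144), and its adjusted p stayed at or under 0.00160 in all 17 alternatives. Ect2, the exchange factor that activates RhoA at the cleavage site, was at 11.5, 16.2, 8.21 and 8.29 CPM in PAM 1 to 4, against 3.05, 5.23, 3.76 and 5.82 CPM in vehicle 1 to 4. The groups did not overlap and Ect2 rose by 1.32 ± 0.35 (edgeR, Benjamini-Hochberg adjusted p = 0.0129), a call lost without PAM 2 (0.00481 to 0.0582 over the 8 edgeR fits). Racgap1, which recruits Ect2, had a log2 fold change of 0.78 ± 0.29 and missed the threshold (edgeR, Benjamini-Hochberg adjusted p = 0.0684), with PAM 4 under vehicle 1. Racgap1 passed with PAM 4 (0.0246), vehicle 1 (0.0341) or both PAM 3 and PAM 4 (0.0103) left out. Nusap1, a microtubule-bundling protein, was at 26.4 ± 5.52 CPM in PAM and 14.3 ± 3.38 CPM in vehicle libraries and rose by 0.89 ± 0.23 (edgeR, Benjamini-Hochberg adjusted p = 0.0108). Anln, the anillin gene, was listed at 0 counts in PAM 4 and in vehicle 2 and was not tested.

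Of the chromosome-structure genes, Top2a, Mki67 and Ncapd2 rose. Top2a, the topoisomerase that untangles sister chromatids, stood at 45.6, 49.3, 36.7 and 30.3 CPM in PAM 1 to 4, against 18.3, 20.6, 24.1 and 26.2 CPM in vehicle 1 to 4. Mki67, whose protein Ki-67 coats mitotic chromosomes and is the standard stain for cycling cells, stood at 42.9, 39.2, 29.6 and 54.8 CPM in PAM 1 to 4, against 20.1, 20.9, 31.0 and 22.6 CPM in vehicle 1 to 4. The Top2a libraries did not overlap, and for Mki67 vehicle 3 lay above PAM 3. They rose by 0.87 ± 0.19 and 0.81 ± 0.20 (edgeR, Benjamini-Hochberg adjusted p = 0.00359 and 0.00898). Of the condensin genes, Ncapd2 was at 35.5, 24.9, 17.5 and 24.2 CPM in PAM 1 to 4, against 14.3, 16.5, 15.7 and 18.1 CPM in vehicle 1 to 4, and rose by 0.67 ± 0.23 (edgeR, Benjamini-Hochberg adjusted p = 0.0461). The Ncapd2 call was lost in 10 of 17 alternatives, without PAM 1, without PAM 2 and without any 1 of the vehicle libraries among them (adjusted p 0.0195 to 0.206 over the 8 edgeR fits). Smc4 (0.72 ± 0.28) and Smc2 (0.32 ± 0.27), the ATPases of the same complex, did not pass. Smc4, at an adjusted p of 0.0787 in edgeR, passed in 6 of 17 alternatives, among them limma-voom (0.0379), no filter on low counts (0.0225), the fit without vehicle 4 (0.00780) and the fit with the trend over gene length removed (0.0377). Smc2 passed in 0 of the 17. Cenpe (0.56 ± 0.34), a kinetochore motor, and Cenpf (0.61 ± 0.28), a kinetochore protein, did not pass either.

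**Figure D4:**
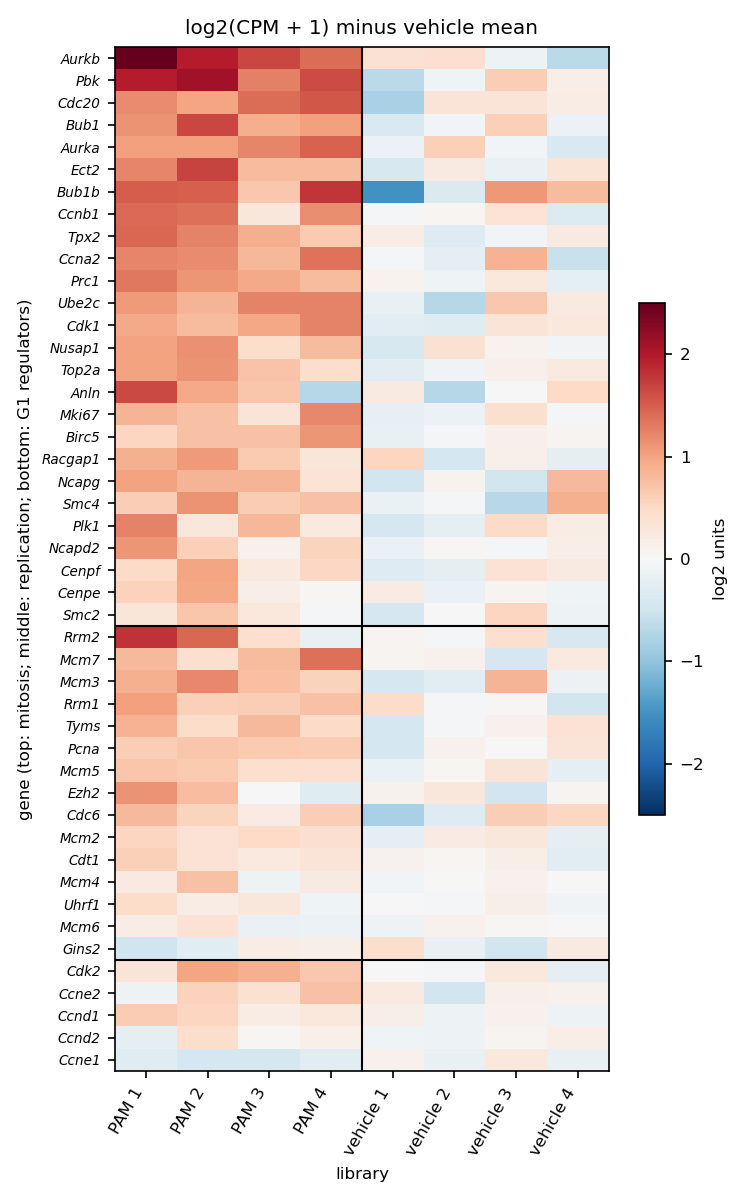
Each gene's log2(CPM + 1) in the 8 libraries minus its vehicle mean (colour, log2 units), PAM libraries left of the black line and vehicle libraries right of it, for the 46 genes with counts. Most mitosis rows are red in all 4 PAM libraries, Rrm2 and Ezh2 are red in PAM 1 and PAM 2, and Ccne1 is blue in all 4 PAM libraries.

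Levels can be compared between genes only per length of exon. In CPM per kilobase, Pcna was the highest of the 46 genes in both groups, at 77.5 ± 1.66 in PAM and 49.9 ± 10.6 in vehicle libraries. The vehicle libraries had Ccnd2 (22.3 ± 2.30), Ccnd1 (18.2 ± 1.91), Ccne1 (16.3 ± 2.67) and Cdk1 (14.3 ± 3.45) next, levels whose neighbours in that order had overlapping ranges of mean ± SD. In PAM libraries the order after Pcna was Aurkb (40.0 ± 15.2), Cdk1 (28.5 ± 3.80), Ccnd1 (24.3 ± 3.69) and Ccnd2 (24.2 ± 4.74), and here too the ranges of neighbours overlapped. Aurkb thus stood at rank 2 in PAM and rank 8 in vehicle libraries, where it was at 10.5 ± 3.42 CPM per kilobase. Ccne1 stood at rank 12 in PAM and rank 4 in vehicle libraries. The lowest were Anln, Ncapg and Cdc6, each under 1 CPM per kilobase in both groups.

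Further genes of the same pathways were taken from lists chosen by role. Of 19 tested mitotic kinesins and spindle proteins, 7 rose and 0 fell, with a median log2 fold change of 0.79, beside 0.02 for all tested genes. Kif22, a chromosome-arm kinesin, averaged 39.4 ± 5.45 CPM in PAM and 13.9 ± 1.58 CPM in vehicle libraries and rose by 1.49 ± 0.19 (edgeR, Benjamini-Hochberg adjusted p = 2.46e-05). Spag5, Ckap2 and Kif11 rose by 1.35 ± 0.25, 0.89 ± 0.20 and 1.15 ± 0.30. Of the 7, 5 kept their call in all 8 edgeR fits that leave out 1 library, these 4 among them. Of 17 kinetochore and checkpoint genes, 2 rose (11.8%, where 9.00% of all tested genes rose) and 0 fell (median 0.37). These were Ndc80, which joins kinetochores to microtubules, by 1.26 ± 0.39, and Spc24, of the same complex, by 0.95 ± 0.30. Of 16 other condensin and cohesin genes, Pttg1, the securin gene, rose by 1.06 ± 0.24, and Ncaph2 fell by 0.45 ± 0.14 on the log2 scale (median 0.12). Each is 6.25% of that list, where 9.00% of all tested genes rose and 9.89% fell. Ncaph2 shares exon bases with another gene that holds 2128 counts, so its value is uncertain. With 1 library left out, the call of Ndc80 was lost in 6 of 8 edgeR fits (adjusted p 0.00321 to 0.0979), and those of Spc24 (0.0175 to 0.114) and Ncaph2 (0.0431 to 0.0950) in 5 each. Of the 14 subunits of the anaphase-promoting complex, 0 rose and 0 fell in edgeR, DESeq2 and limma-voom, and 1 was higher at an unadjusted p under 0.05 in edgeR, with a median of 0.02.

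Of 37 other origin and fork factors, 3 rose (8.11%) and 0 fell, with a median of 0.35. These were Prim2, a subunit of the primase, by 1.24 ± 0.29, Rpa1, which coats single-stranded DNA, by 0.48 ± 0.14, and Pold3, a subunit of DNA polymerase delta, by 0.68 ± 0.21. Prim2 kept its call in all 8 edgeR fits that leave out 1 library, and Rpa1 (adjusted p 0.00196 to 0.0912) and Pold3 (0.0119 to 0.107) lost theirs in 5 each. Of 8 other nucleotide-supply genes, Tk1, thymidine kinase, averaged 32.6 ± 4.78 CPM in PAM and 17.0 ± 2.57 CPM in vehicle libraries and rose by 0.94 ± 0.19 (edgeR, Benjamini-Hochberg adjusted p = 0.00208), and Umps rose by 0.78 ± 0.19 (median 0.21). Since 9.00% of all tested genes rose, the origin and fork, kinetochore, and condensin and cohesin lists were near that share. The nucleotide-supply (25%) and kinesin (36.8%) lists lay above it. In the origin and fork, nucleotide-supply, kinesin, kinetochore and anaphase-promoting complex lists, 0 genes were lower at an unadjusted p under 0.05 in edgeR. In the same lists 0 fell in DESeq2 or limma-voom. Of the kinesin list, 7 rose in DESeq2 and 5 in limma-voom.

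The regulators upstream of these genes include the transcription factors themselves. Of 14 pocket protein, E2F and G2/M transcription factor genes, 0 rose and 0 fell in edgeR, DESeq2 and limma-voom, while 2 were higher and 1 lower at an unadjusted p under 0.05 in edgeR. Their median was 0.18. Foxm1, named here after its values were seen because its protein binds at CHR promoters, averaged 12.4 ± 4.14 CPM in PAM and 7.60 ± 3.36 CPM in vehicle libraries and missed the threshold with a log2 fold change of 0.71 ± 0.35 (Benjamini-Hochberg adjusted p = 0.165 in edgeR). Of 16 other cyclins, CDKs and switch enzymes, 0 rose in edgeR, DESeq2 and limma-voom (3 were higher at an unadjusted p under 0.05 in edgeR). Fzr1, which encodes the Cdh1 activator of the anaphase-promoting complex that keeps cells in G1, fell by 0.52 ± 0.14 on the log2 scale (edgeR, Benjamini-Hochberg adjusted p = 0.0133), a call lost without vehicle 2 or vehicle 4 (0.0140 to 0.0559 over the 8 edgeR fits). This single fall is 6.25% of the list, where 9.89% of all tested genes fell. Of 5 CDK inhibitor genes, which restrain the cycle, Cdkn2c rose by 1.10 ± 0.30 and Cdkn1c by 0.92 ± 0.29 (edgeR, Benjamini-Hochberg adjusted p = 0.0136 and 0.0342), and 0 fell (0 at an unadjusted p, and 0 in DESeq2 and limma-voom). The Cdkn2c call was lost without PAM 1 (0.00659 to 0.0673 over the 8 edgeR fits), and the Cdkn1c call without PAM 1, vehicle 2, vehicle 3 or vehicle 4 (0.0184 to 0.136).

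**Figure D5:**
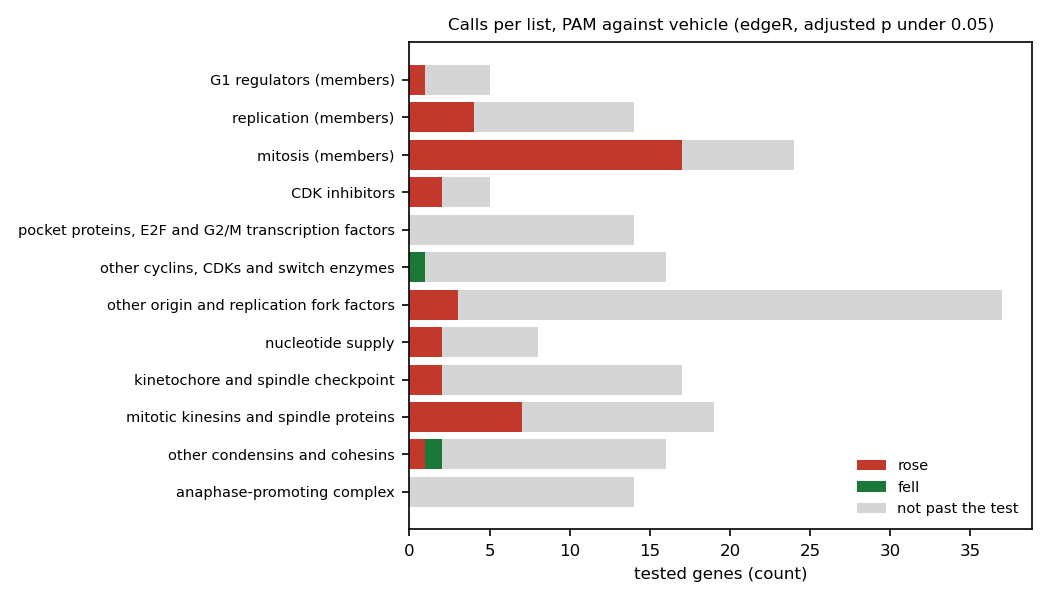
Number of tested genes (horizontal axis) that rose (red), fell (green) or did not pass (grey) in edgeR at an adjusted p under 0.05, for the 3 classes of listed genes and 9 further pathway lists. The mitosis genes (17 of 24) and the mitotic kinesins and spindle proteins (7 of 19) hold the most calls, and the anaphase-promoting complex and the transcription factors hold 0.

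Markers of several non-neuronal cell types were also higher in PAM libraries. The counts below can be read against the 9.00% of all tested genes that rose and the 9.89% that fell. Summed over the 8 neural progenitor markers, PAM libraries held 1309 to 1479 CPM and vehicle libraries 809 to 908 CPM. Of these 8, 4 rose, Fabp7, Prom1 and Nes with the smallest p, and 1 fell. Astrocyte markers summed to 9185 to 11169.9 CPM in PAM and 6283 to 6599.7 CPM in vehicle libraries, and 5 of 9 rose, Gja1, S100b and Gfap with the smallest p. Oligodendrocyte precursor markers summed to 1041 to 1184 CPM in PAM and 794 to 894 CPM in vehicle libraries, and of 7 tested, 3 rose (Olig1, Sox10 and Gpr17) and 1 fell. None of these sums overlapped between groups. Oligodendrocyte markers rose in 4 of 6, Cnp and Mbp among them (374 to 695 CPM in PAM, 188 to 242 CPM in vehicle libraries), while DESeq2 called 5 and limma-voom 3. Ependymal and multiciliated markers rose in 5 of 6, Ccdc153, Rsph1 and Tekt1 with the smallest p (131 to 219 CPM in PAM, 40.7 to 68.3 CPM in vehicle libraries). These sums did not overlap either. Endothelial, mural and fibroblast markers rose in 2 of 5, Col1a1 and Kdr (127 to 202 CPM in PAM, 99.9 to 146 CPM in vehicle libraries). Microglial markers rose in 0 and fell in 0 of 4 in edgeR, DESeq2 and limma-voom, and 1 was lower at an unadjusted p under 0.05 in edgeR (27.4 to 37.1 CPM in PAM, 35.5 to 78.9 CPM in vehicle libraries). The endothelial and the microglial sums overlapped between groups. The pan-neuronal markers, which check the labelled cell type, were present in every library, at 2704 to 3197 CPM in PAM and 3446 to 3958 CPM in vehicle libraries, and 3 of 7 fell (Tubb3, Rbfox3 and Syn1). Markers of excitatory neurons fell in 3 of 7, Neurod6, Slc17a7 and Neurod2 (885 to 1010.0 CPM in PAM, 1376 to 1627 CPM in vehicle libraries). Markers of inhibitory neurons fell in 3 of 7, Slc32a1 and Reln among them, and Pvalb rose (1091 to 1629.6 CPM in PAM, 1558 to 1728 CPM in vehicle libraries). These inhibitory sums overlapped between groups. Of the 35 marker calls, 27 were kept in all 8 edgeR fits that leave out 1 library. The other 8 were those of Gpr17, lost in 4 fits (highest adjusted p 0.0784), Kdr in 3 (0.103), Neurod2 in 2 (0.0813) and, named after their values were seen, Sox2 in 3 (0.0871), Hes5 in 5 (0.104), Pdgfra in 4 (0.0938), Cldn11 in 6 (0.121) and Dlx1 in 4 (0.117). Hes5 and Pdgfra are the progenitor and the precursor marker that fell. No marker with an identifier was at 0 in every library. Markers without an identifier in the pairing, Foxj1 among them, are not analysed here. The part of these cell types in the cell cycle result was not tested. The authors' count tables hold 1 value per gene and library, so the cells that held the cell cycle transcripts cannot be named from them.

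Longer genes had relatively fewer counts in PAM 3 and PAM 4, where each doubling of exonic length went with −0.0853 and −0.132 log2 units, whereas it went with 0.00524 to 0.0627 in the other 6 libraries. The median exonic length was 3672 bases for the mitosis genes tested and 2925 bases for the replication genes tested. With the length trend removed, 21 of the listed genes rose and 0 fell, and the difference between the mitosis and replication medians was 0.50.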

How the data were processed

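Polyadenylated RNA of 8 libraries was sequenced, per the labels' protocols. Each library has a file of whole-number gene counts that the authors deposited, per the file headers with exonic lengths beside the counts. The tools STAR, featureCounts, DESeq2 and the build Rnor_6.0 are named without versions per the submitters' processing notes, and strandedness is not given in the sources used here. The authors also deposited group means (normalized signal values), log2 fold changes and p-values of their own comparison, per the file headers, which paired 13739 identifiers with symbols.

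Counts were tested here in R 4.3.3 with edgeR 4.0.16 (filterByExpr, TMM, robust quasi-likelihood F test, group as the only term), with Benjamini-Hochberg adjustment over all 11740 genes tested. The SE was taken from the log2 fold change and the F statistic, and intervals are at 95%. Promoter letters were searched in RefSeq promoters with Python 3.11.15. Members, lists and classes were chosen with earlier results of these data known. Named genes were every member and, of other lists, up to 4 genes past the test with the smallest p (up to 3 for cell type markers), and others are marked as named after their values were seen. Alternatives were DESeq2 1.42.0, limma-voom (limma 3.58.1), RLE and upper-quartile scaling, other filters on low counts, the replicate block, leaving out libraries, and removal of the length trend. No library was a duplicate of another of its group. The chi-square per degree of freedom was 2.77 to 4.11 between vehicle replicates and 4.36 to 14.8 between PAM replicates. It was 7.42 to 14.8 for PAM 1 or PAM 2 against PAM 3 or PAM 4. PAM 1 against PAM 2 gave 4.36, and PAM 3 against PAM 4 gave 6.22. The procedure was tested on simulated counts with known changes. These counts had a single noise level for all genes, and changes only in genes well above the floor.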

Additional observations from a re-analysis of the deposited data

Results flagged for a closer look

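Mcm3 was at 13.1 CPM in vehicle 3, against 4.88 to 6.15 CPM in the other vehicle libraries, a gap that stands out in a group of 4. Cdc20 was at 7.62 CPM in vehicle 1, against 16.2 to 17.9 CPM in the other vehicle libraries. Over the 86 groups of 4 libraries examined (43 genes in 2 groups) these were the 2 that stood apart in this way, and chance sets apart about 1 in 20 groups.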

How the results depend on the processing

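The count of listed genes that rose (22) stayed between 17 and 24 when 1 library was left out, with 17 in the fits without PAM 2, vehicle 2 or vehicle 4, and was 29 without both PAM 3 and PAM 4. The count that fell was 0 in all 17 alternatives. Calls in the whole table numbered 1527 to 2408 with 1 library left out, against 2218. The mitosis median stayed between 0.96 and 1.10 and the replication median between 0.47 and 0.62 with 1 library left out, and their difference (0.48) between 0.34 and 0.56. Without vehicle 2 that difference, 0.34, moved by more than the spread between replicates, and the cause was not tested. With 1 library left out, the log2 fold change of Ccnd2 ran from −0.017 (without PAM 2) to 0.22, that of Mcm6 from −0.031 (without PAM 2) to 0.16 and that of Gins2 from −0.28 to 0.032 (without vehicle 1), so each changed sign. None of the 3 passed the test in any fit. Same-numbered libraries did not deviate together (correlations −0.06 to 0.07, against −0.15 to 0.12 between differently numbered ones). So few correlations cannot exclude that the numbers mark pairs, and the labels do not say what they mark. With the replicate number as a block, 2064 genes were called, 20 listed genes rose (Birc5, Ncapd2 and Rrm2 lost their call and Smc4 gained one) and 0 fell, the replication and mitosis medians were 0.52 and 1.04 and their difference 0.52. Of the 22 genes that rose, 15 kept their call in all 17 alternatives. Depth limits Cdc6, Anln and Ncapg, which were not tested.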
